A study of Mus musculus with 6 samples.

Results

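Ddit4, Ddit4l, Sesn1, Sesn2, Sesn3 and Deptor encode inhibitors of mTORC1, the kinase complex that couples cell growth to nutrients, and were followed in mouse hearts after treatment with an anticoagulant. The genes were chosen by symbol, as the REDD pair, the sestrins and Deptor, with earlier results of the same libraries known. They are 6 of 16229 genes in the deposited table, and all 6 lay above the filter on low values that left 12981 genes for testing. Heart RNA came from male wild-type C57BL/6 mice aged 8 to 10 weeks. The groups were mice given rivaroxaban, an inhibitor of coagulation factor Xa, at 3 mg/kg for 7 days, mice given dabigatran, an inhibitor of thrombin, at 10 mg/kg for 7 days, and untreated mice, with 2 libraries each. The libraries are rivaroxaban replicates 14 and 15, dabigatran replicates 10 and 12, and untreated replicates 8 and 9. The protocol text applies to every sample and describes the infarct and its surroundings, and the series title names ischemia-reperfusion injury. It is not stated whether untreated mice were operated on, whether the libraries of a group came from separate mice, or how long after the last dose hearts were taken. The p-values therefore measure only the spread between these samples, which may be technical.

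mTORC1 drives protein and lipid synthesis and restrains autophagy when amino acids, growth factors and energy are plentiful, and it signals from the lysosome surface. In heart muscle it is needed for growth of the cells, and its inhibition is known to favour autophagy under ischemia. Its brakes act at different points. DDIT4, also called REDD1, is a short-lived protein that is induced by hypoxia, glucocorticoids and energy stress and acts through the TSC complex, which switches off the small GTPase RHEB that activates mTORC1. DDIT4L, or REDD2, is its relative and is known from skeletal and heart muscle. The sestrins bind GATOR2, a complex that keeps the RAG GTPases active when amino acids are present. The Sesn1 and Sesn2 proteins bind leucine, which releases them from GATOR2, and they also protect against oxidants. DEPTOR binds mTOR itself. In the deposited table's own gene ontology column, 5 of the 6 genes carry negative regulation of TOR or TORC1 signalling, and Ddit4l does not. Sesn1, Sesn2 and Sesn3 carry the GATOR2 complex and the response to amino acid starvation, and Ddit4 alone of the 6 carries the responses to dexamethasone and to hypoxia.

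All 6 are protein-coding genes, placed here by GENCODE M21 on GRCm38 (mm10). Ddit4 (ENSMUSG00000020108) lies on chromosome 10 from 59949669 to 59951834 on the minus strand, and Ddit4l (ENSMUSG00000046818) on chromosome 3 from 137621612 to 137628333 on the plus strand. Sesn1 (ENSMUSG00000038332) lies on chromosome 10 from 41809935 to 41908424, Sesn3 (ENSMUSG00000032009) on chromosome 9 from 14275067 to 14333101 and Deptor (ENSMUSG00000022419) on chromosome 15 from 55112317 to 55259271, all on the plus strand. Sesn2 (ENSMUSG00000028893) lies on chromosome 4 from 132492032 to 132510501 on the minus strand. The longest exact run shared by the same-strand transcripts of any pair of the genes was 28 bases, between Sesn3 and Deptor, and Ddit4 and Ddit4l shared at most 13 bases. Deptor overlaps 303 exon bases of Gm9920, a transcript on the opposite strand that was not analysed here. The library kit keeps the strand, but the strand setting of the read counter is not given in the sources used here.

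The upstream DNA is shown for Ddit4, the one gene of the group past the test threshold, for its relative Ddit4l, which was not, and for Sesn1, the member with the highest level per length. The sequences are from RefSeq promoter windows on GRCm38.p6, which run from 250 bases before a transcript start to 50 after it. They are printed 5′ to 3′ on the strand of the gene without bases of a GENCODE exon. The Ddit4 stretch is chr10:59951835-59952020 (minus strand), the Ddit4l stretch chr3:137623422-137623671 (plus strand) and the Sesn1 stretch, before its second start, chr10:41887189-41887438 (plus strand). Capitals mark matches to the core motif ACGTG, to the motif TGACG and, in the form ATTGG, to CCAAT read on the opposite strand.
Ddit4: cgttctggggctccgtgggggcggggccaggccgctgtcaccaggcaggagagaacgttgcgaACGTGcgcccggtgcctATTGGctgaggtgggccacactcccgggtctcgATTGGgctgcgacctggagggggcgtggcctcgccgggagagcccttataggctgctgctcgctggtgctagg
Ddit4l: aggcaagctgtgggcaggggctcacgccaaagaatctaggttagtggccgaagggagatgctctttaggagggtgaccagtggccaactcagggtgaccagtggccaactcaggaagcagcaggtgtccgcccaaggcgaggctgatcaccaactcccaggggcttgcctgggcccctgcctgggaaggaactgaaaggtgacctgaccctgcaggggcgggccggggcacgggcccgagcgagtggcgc
Sesn1: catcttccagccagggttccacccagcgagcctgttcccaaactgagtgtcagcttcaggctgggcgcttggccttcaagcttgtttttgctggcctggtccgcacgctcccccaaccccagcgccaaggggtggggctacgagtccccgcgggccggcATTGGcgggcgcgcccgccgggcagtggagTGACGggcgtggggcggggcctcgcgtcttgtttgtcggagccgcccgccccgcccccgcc
The whole windows of Ddit4, Ddit4l and the second Sesn1 start had a GC content of 69.0%, 65.7% and 71.0%, against a median of 52.7% over 32851 windows of the same length. The Ddit4 stretch held ACGTG, the core of the hypoxia response element, 187 bases before the RefSeq start, and CCAAT on the opposite strand 170 and 137 bases before it. ACGTG stood in 19.6% of all windows and CCAAT in 37.4%, on either strand. The Ddit4l stretch held none of the motifs searched. The Sesn1 stretch held CCAAT on the opposite strand 91 bases and TGACG, part of the cAMP response element, 61 bases before its start, and TGACG stood in 20.8% of all windows. The Sesn2 window held CCAAT 2 times and the Sesn3 window 4 times. The window of the first Sesn1 start held CCAAT, the FOXO element TGTTTAC and the heat shock element pair GAANNTTC. The Ddit4l window held the TATA box motif TATAAA after its start. These matches in the first Sesn1 window and the Ddit4l window lay within GENCODE exons. TGTTTAC, GAANNTTC and TATAAA stood in 3.65%, 7.86% and 13.6% of all windows. None of the windows of these 5 genes held the glucocorticoid response element (AGAACA and TGTTCT with any 3 bases between them), its part AGAACA or the ATF4 element TGATGNAA on either strand, against 0.00913%, 19.0% and 3.97% of all windows. Deptor had no entry among the windows.

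The libraries held 35895896 and 29028033 reads with rivaroxaban, 27176892 and 43798222 with dabigatran and 28624427 and 32285438 in untreated hearts, summed over the listed genes. Levels are on the log2 CPM scale, scaled by the authors for library size, and 1 read was worth 0.0229 to 0.0373 CPM. Across libraries the members had between 79 reads (Ddit4l) and 7096 reads (Sesn1). The cardiomyocyte markers were abundant in every library, with a summed level of 70241 to 71957 CPM with rivaroxaban, 72856 to 73256 CPM with dabigatran and 74093 to 74713 CPM in untreated hearts over 6 matched genes. Spp1 and Il1b, which a recent infarct is known to raise, lay between 0.247 and 0.664 CPM in all 6 libraries, and Postn, a gene of activated fibroblasts, between 50.6 and 63.6 CPM. In whole tissue, fewer cells of a type and less RNA per cell cannot be told apart.

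Per length of exon, the 6 genes spanned a wide range, and Sesn1 and Ddit4 carried most of the summed level. Sesn1 averaged 40.1 CPM per kb over the 6 libraries (range 34.8 to 44.5). By mean log2 CPM it stood above 92.0% of tested genes. Ddit4 followed with 27.4 CPM per kb (12.4 to 43.8), then Deptor with 2.99 (2.73 to 3.43), Sesn2 with 2.12 (1.98 to 2.33), Ddit4l with 1.11 (0.864 to 1.38) and Sesn3 with 0.188 (0.164 to 0.249). The ranges of Sesn1 and Ddit4 overlapped, and those of all other neighbours in this order did not. In dabigatran replicate 10 Ddit4 came close to Sesn1, at 43.8 against 44.5 CPM per kb. Ddit4 made up 40.1% ± 0.59 of the summed CPM per kb of the 6 genes with rivaroxaban, 42.9% ± 4.62 with dabigatran and 23.3% ± 2.40 in untreated hearts (SD, n = 2 each). Sesn1 made up 51.6% ± 0.64, 49.6% ± 3.71 and 65.6% ± 2.89 in the same order of groups (SD, n = 2 each). The summed level was 75.4 and 82.8 CPM per kb with rivaroxaban and 94.9 and 78.2 with dabigatran, above the 54.7 and 57.4 of untreated hearts. Dividing by the longest transcript in place of all exon bases kept the order of the 6 genes.

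**Figure D1:**
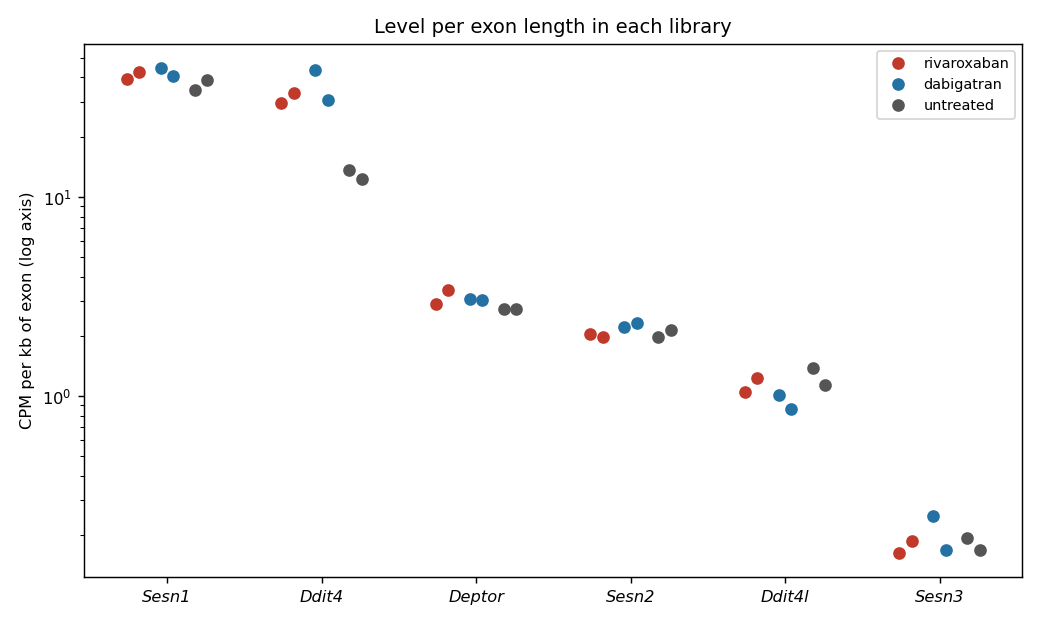
Level of each gene in each library, in CPM per kb of exon on a log axis, with genes ordered from the highest mean to the lowest and libraries coloured by group. Sesn1 (34.8 to 44.5) and Ddit4 (12.4 to 43.8) stand about a decade above Deptor (2.73 to 3.43), and the treated libraries of Ddit4 (29.9 to 43.8) lie above its untreated ones (12.4 and 13.7).

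Ddit4, the REDD1 gene, was higher in all 4 libraries of treated mice than in both untreated libraries. It had 5.72 and 5.88 log2 CPM in rivaroxaban hearts, from 1912 and 1722 reads. In dabigatran hearts it had 6.26 and 5.77 log2 CPM, from 2058 and 2374 reads. In untreated hearts it had 4.59 and 4.45 log2 CPM, from 684 and 704 reads. The untreated libraries differed little from each other, and the dabigatran libraries differed most, with replicate 10 the highest of all 6. The means were 55.7 ± 4.53 CPM with rivaroxaban, 65.6 ± 15.9 CPM with dabigatran and 22.9 ± 1.58 CPM in untreated hearts (SD, n = 2 each). The log2 difference from untreated hearts was 1.28 with rivaroxaban (SE 0.13, 95% interval 0.99 to 1.57), a 2.43-fold difference. With dabigatran it was 1.50 (SE 0.13, 95% interval 1.21 to 1.79), a 2.82-fold difference. Ddit4 ranked 15th of 12981 genes by its log2 difference with rivaroxaban and 9th with dabigatran, counted from the highest. Both differences were past the threshold of a limma adjusted p of 0.05 over all tested genes. Since the gene was chosen with these values known, they are a description, and the comparisons with untreated hearts share the same untreated libraries. With 1 library left out, the log2 difference lay between 1.20 and 1.36 for rivaroxaban and between 1.25 and 1.75 for dabigatran, past the threshold each time. When limma was run with no mean-variance trend, 0 genes passed in either comparison, Ddit4 included, with 1938 and 1728 genes at an unadjusted p under 0.05.

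Ddit4l, the REDD2 gene, was not higher in the treated hearts. It had 1.64 and 1.87 log2 CPM with rivaroxaban, 1.59 and 1.37 with dabigatran and 2.03 and 1.77 in untreated hearts, from 79 to 115 reads per library. The rivaroxaban libraries overlapped the untreated ones, and both dabigatran libraries lay below them. The log2 difference from untreated hearts was -0.15 with rivaroxaban (SE 0.18, 95% interval -0.55 to 0.25) and -0.42 with dabigatran (SE 0.18, 95% interval -0.82 to -0.02), and neither was past the threshold. With 1 library left out, they ranged from -0.28 to -0.01 and from -0.55 to -0.29. The upper bounds of the 95% intervals lie below the lower bounds for Ddit4, 0.99 and 1.21.

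**Figure D2:**
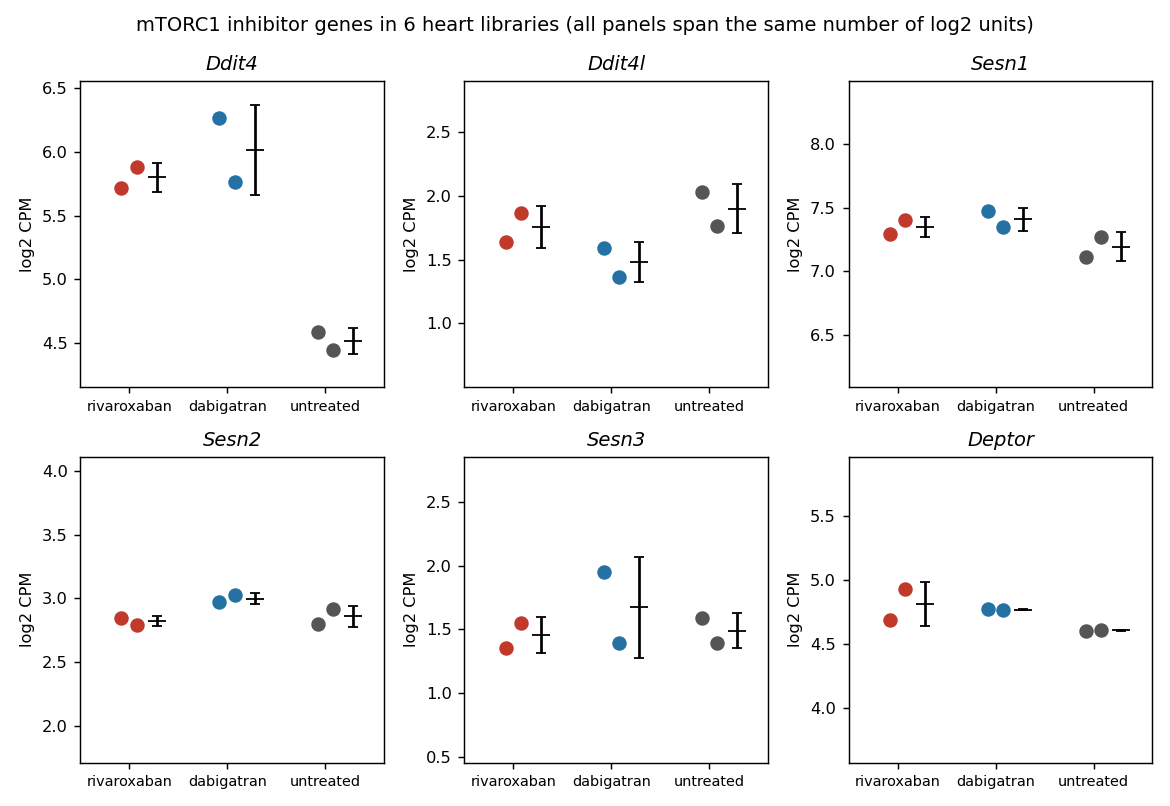
Log2 CPM of the 6 genes in each library by group, with the group mean and SD (n = 2) as bars, and with each vertical axis spanning the same number of log2 units. The 4 treated libraries of Ddit4 lie between 5.72 and 6.26, above the untreated 4.45 and 4.59, and the other panels show differences of less than 0.5 between group means.

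The sestrins had small differences, none of which passed the threshold. Sesn1, the most abundant of them, had 7.29 and 7.40 log2 CPM with rivaroxaban, 7.47 and 7.35 with dabigatran and 7.11 and 7.27 in untreated hearts, from 3945 to 7096 reads. All 4 treated libraries lay above both untreated ones, the lowest treated by a narrow margin. Its log2 difference was 0.15 with rivaroxaban (SE 0.07, 95% interval -0.00209 to 0.31) and 0.22 with dabigatran (SE 0.07, 95% interval 0.06 to 0.37). With 1 library left out, these ranged from 0.07 to 0.23 and from 0.14 to 0.29. The upper bounds of the 95% intervals correspond to a 1.24-fold higher level with rivaroxaban and a 1.29-fold higher level with dabigatran.

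Sesn2, whose protein is the best studied leucine sensor of the family, had 2.85 and 2.80 log2 CPM with rivaroxaban, 2.97 and 3.03 with dabigatran and 2.80 and 2.91 in untreated hearts. The rivaroxaban libraries overlapped the untreated ones, and both dabigatran libraries lay just above them. The log2 difference was -0.04 with rivaroxaban (SE 0.11, 95% interval -0.29 to 0.22) and 0.14 with dabigatran (SE 0.11, 95% interval -0.11 to 0.39). Sesn3, known as a target of the FOXO transcription factors, had 1.36 and 1.55 log2 CPM with rivaroxaban, 1.95 and 1.39 with dabigatran and 1.59 and 1.39 in untreated hearts, from 83 to 112 reads. Its dabigatran libraries differed more from each other than the group means did, and both treated groups overlapped the untreated one. The log2 difference was -0.04 with rivaroxaban (SE 0.21, 95% interval -0.51 to 0.44) and 0.18 with dabigatran (SE 0.21, 95% interval -0.29 to 0.65). At this depth a difference of the size seen for Ddit4 lies outside all of these intervals, and smaller ones of Sesn3 could not be resolved.

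Deptor, which encodes the inhibitor bound to mTOR, had 4.69 and 4.93 log2 CPM with rivaroxaban, 4.77 and 4.76 with dabigatran and 4.60 and 4.61 in untreated hearts, from 691 to 1184 reads. Every treated library lay above both untreated ones, and the rivaroxaban libraries were the most spread. The log2 difference was 0.20 with rivaroxaban (SE 0.09, 95% interval 0.00955 to 0.39) and 0.16 with dabigatran (SE 0.09, 95% interval -0.03 to 0.35), and neither passed the threshold over all genes. With 1 library left out, the rivaroxaban difference ranged from 0.08 to 0.32.

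Counted together, 1 of the 6 genes, Ddit4, was past the threshold with rivaroxaban, where 2.46% of all tested genes were, 1.47% higher and 0.986% lower. With dabigatran the count was also 1 of 6, against 1.88% of all tested genes, 1.38% higher and 0.501% lower. The rivaroxaban and untreated libraries did not overlap for 3 of the 6 genes (Ddit4, Sesn1 and Deptor, all higher), as for 50.6% of all tested genes, 26.1% higher and 24.5% lower. The dabigatran and untreated libraries did not overlap for 5 of the 6 (Ddit4, Sesn1, Sesn2 and Deptor higher, Ddit4l lower), as for 43.6% of all tested genes, 22.8% higher and 20.8% lower. The median log2 difference of the 6 genes was 0.06 with rivaroxaban and 0.17 with dabigatran, beside medians of 0.00505 and 0.00259 over all tested genes. Nothing is read from these shares, because the genes were chosen from the same contrasts.

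The 2 drugs were given at different doses, and the values of the 6 genes are set side by side as a description. For Ddit4 the log2 difference of rivaroxaban minus dabigatran was -0.22 (SE 0.13, 95% interval -0.51 to 0.08), and the libraries of the drugs overlapped. It was 0.27 for Ddit4l (95% interval -0.13 to 0.68), -0.06 for Sesn1 (-0.22 to 0.09), -0.18 for Sesn2 (-0.43 to 0.08), -0.22 for Sesn3 (-0.69 to 0.25) and 0.04 for Deptor (-0.15 to 0.23). None of the 6 genes passed the limma threshold, where 0.077% of all tested genes did. At an unadjusted p under 0.05 the count was likewise 0, as it was past the adjusted threshold with voom on the recovered reads. The drug libraries did not overlap for 2 of the 6, Ddit4l (rivaroxaban higher) and Sesn2 (rivaroxaban lower), as for 39.7% of all tested genes, 19.3% higher and 20.4% lower. A p that misses the threshold does not show that the drugs act alike, and for Ddit4 the interval runs from 0.703 to 1.05 times the dabigatran level.

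**Figure D3:**
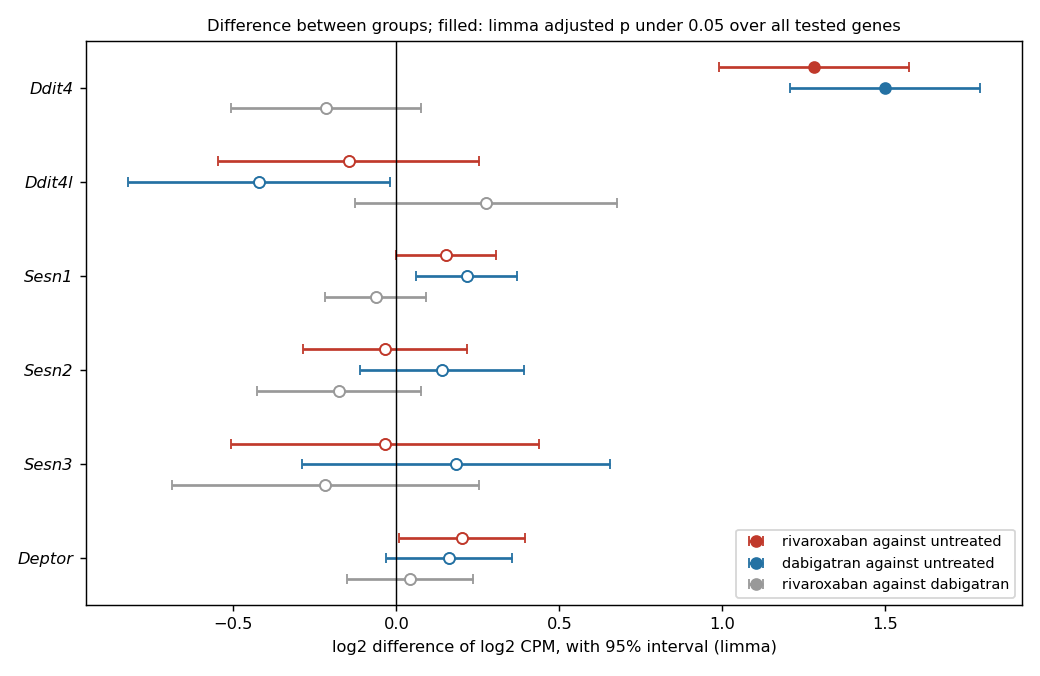
Log2 difference of each gene in the comparisons of rivaroxaban with untreated, dabigatran with untreated and rivaroxaban with dabigatran, with limma's 95% interval, and filled where the adjusted p over all tested genes was under 0.05. Ddit4 lies at 1.28 and 1.50 against untreated hearts, and every other point lies between -0.42 and 0.27.

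The genes on which the inhibitors act had small differences, none past the threshold. Mtor, Rptor, which encodes the mTORC1 scaffold raptor, Tsc1, Tsc2 and Rheb had log2 differences of -0.05 to 0.18 with rivaroxaban and 0.02 to 0.10 with dabigatran. Their lowest limma adjusted p was 0.276 with rivaroxaban and 0.463 with dabigatran. The machinery around them was taken as 72 tested genes in 6 lists, for the mTOR complexes, the TSC complex, GATOR with its amino acid sensors, the RAG GTPases with Ragulator and folliculin, the substrates of mTORC1 and AMPK. With rivaroxaban 1 of the 72 rose and none fell, and the median log2 difference was 0.00614. The riser was Flcn, which encodes folliculin, a protein that switches RAG GTPases on the lysosome. Flcn had 6.50 ± 0.04 log2 CPM with rivaroxaban and 6.17 ± 0.02 in untreated hearts (SD, n = 2 each), and was 1.25-fold higher (limma log2 0.33 with SE 0.06, adjusted p = 0.0186). Its call was lost with each of the 4 libraries left out in turn (adjusted p up to 0.218). With dabigatran limma called 0 of the 72 past the threshold, as did voom, with 9 at an unadjusted p under 0.05 and a median of 0.02. The partner of folliculin Fnip2, named after its values were seen, had log2 differences of 0.67 with rivaroxaban (adjusted p = 0.123) and 0.72 with dabigatran (adjusted p = 0.120) that did not pass.

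Genes known to follow mTORC1 activity also gave no call in the main fit. Of 38 tested lysosome and autophagy genes under TFEB and sterol and lipid genes under SREBP, limma and voom each called 0 with either drug. At an unadjusted p under 0.05 limma gave 7 with rivaroxaban and 6 with dabigatran, and the medians were -0.0015 and -0.02. Among the fits on all 6 libraries, centring them on their median gave 1 call of the SREBP list with rivaroxaban. Fits with a library left out are not covered by that statement. The mRNA values do not measure mTORC1 kinase activity. A set of 36 other tested genes that the table annotates as negative regulators of TOR signalling was made after the table was read. Of these, Flcn rose and Spaar fell with rivaroxaban. Flcn was also the 1 riser with rivaroxaban among 31 tested genes annotated as positive regulators, a set made in the same way. None of those 31 fell. Spaar, whose small peptide restrains the response of mTORC1 to amino acids, had 2.36 ± 0.02 log2 CPM with rivaroxaban and 2.94 ± 0.03 in untreated hearts (SD, n = 2 each), a limma log2 difference of -0.58 with SE 0.13 (adjusted p = 0.0388). Its call was also lost with each of the 4 libraries left out (adjusted p up to 0.234). With dabigatran limma called 0 of the 36, with 3 at an unadjusted p under 0.05 and 0 by voom.

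The inputs known to raise the mRNAs of these inhibitors were described through lists that hold none of the 6 genes. Among 18 tested glucocorticoid targets, 9 rose and 1 fell with rivaroxaban, and 11 rose and none fell with dabigatran. Their median log2 differences were 0.76 and 0.83. Of 30 tested genes that the deposited table annotates with a response to dexamethasone, a synthetic glucocorticoid, 1 rose with rivaroxaban and 2 with dabigatran, none fell, and the medians were 0.02 and 0.03. The risers were Errfi1 with both drugs and Aqp1 with dabigatran, and Errfi1 stands in both sets. Sgk1, a kinase, had 6.69 ± 0.01 log2 CPM with rivaroxaban, 6.67 ± 0.16 with dabigatran and 5.51 ± 0.10 in untreated hearts (SD, n = 2 each). Tsc22d3, which encodes the leucine zipper protein GILZ, had 7.28 ± 0.19, 7.15 ± 0.18 and 6.35 ± 0.15 log2 CPM in the same groups (SD, n = 2 each). Both were called for both drugs and with each library left out in turn, and every treated library of each lay above both untreated ones. Errfi1 had 5.65 ± 0.08, 5.86 ± 0.06 and 4.47 ± 0.19 log2 CPM in the same groups (SD, n = 2 each). Zbtb16 had 6.57 ± 0.37, 5.93 ± 0.79 and 4.44 ± 0.06, and Per1 had 7.06 ± 0.11, 7.13 ± 0.23 and 6.27 ± 0.19 (SD, n = 2 each). Errfi1, Zbtb16 and Per1 were called for both drugs in the main fit. With dabigatran Zbtb16 was not called by voom, and with 1 library left out its log2 difference ran from 0.93 to 2.05. The whole list was less steady than Sgk1 and Tsc22d3. Its 10 calls with rivaroxaban became 4 without rivaroxaban replicate 15 and 7 without either untreated library. Its 11 calls with dabigatran became 6 without dabigatran replicate 10 or untreated replicate 8 and 7 without untreated replicate 9. The gene that fell was Lcn2, which encodes lipocalin-2 (limma adjusted p = 0.0281), and its call was lost without each library in turn (adjusted p up to 0.244). The list was picked knowing that such genes were high in these libraries, so its counts are no independent evidence of a direction.

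The ATF4 targets, genes of the amino acid and integrated stress response that share this factor with Ddit4 and Sesn2, gave a few calls. Of 29 tested, 4 rose with rivaroxaban and 2 with dabigatran, none fell, and the medians were 0.03 and -0.00369. Atf3, a stress-induced transcription factor, had 3.31 and 3.62 log2 CPM with rivaroxaban, 4.08 and 3.54 with dabigatran and 2.19 and 2.19 in untreated hearts. Its rise was 2.42-fold with rivaroxaban (log2 1.27, SE 0.17, limma adjusted p = 0.00312) and 3.07-fold with dabigatran (log2 1.62, SE 0.17, limma adjusted p = 0.00117), and the rivaroxaban call was lost without rivaroxaban replicate 15 (adjusted p = 0.0538). Slc7a1, which encodes an importer of cationic amino acids, rose 1.68-fold with rivaroxaban (log2 0.74, SE 0.07, limma adjusted p = 4.81e-04). With dabigatran it rose 1.26-fold (limma adjusted p = 0.0364), a call lost without dabigatran replicate 10 and without either untreated library (adjusted p up to 0.189). Vegfa, the angiogenic growth factor, and Cebpb, a transcription factor, were the other risers with rivaroxaban, 1.20-fold and 2.10-fold (limma adjusted p = 0.019 and 0.0403). Both lost their call without either rivaroxaban library, Vegfa also without untreated replicate 8 and Cebpb without untreated replicate 9 (adjusted p up to 0.148 and 0.312). Cebpb was also not called by voom. Over the whole list, log2 differences ran from -0.55 to 1.27 with rivaroxaban and from -0.44 to 1.62 with dabigatran. At an unadjusted limma p under 0.05 there were 9 and 10 of the 29 genes, in that order. Trib3 and Slc7a11 of this list were named after their values were seen. Their log2 differences were -0.16 and -0.30 with rivaroxaban and -0.36 and -0.40 with dabigatran, and did not pass.

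Of 21 tested p53 targets, Cdkn1a and Btg2 rose with rivaroxaban, and Cdkn1a, Btg2 and Fas rose with dabigatran. Cdkn1a, which encodes the cell cycle inhibitor p21, rose 1.90-fold with rivaroxaban (log2 0.92, SE 0.13, limma adjusted p = 0.00336) and 1.88-fold with dabigatran (log2 0.91, SE 0.13, limma adjusted p = 0.00682). The rivaroxaban call of Cdkn1a was lost without rivaroxaban replicate 15 (adjusted p = 0.0567). Btg2, an antiproliferative gene, lost its call without rivaroxaban replicate 15 or untreated replicate 8 with rivaroxaban and without untreated replicate 8 with dabigatran (adjusted p up to 0.103 and 0.0647). Fas, a death receptor gene, lost its call without dabigatran replicate 10 or either untreated library (adjusted p up to 0.222), and was not called by voom. Sesn1 and Sesn2 are themselves known p53 targets and had the small differences given above. Of 19 tested FOXO factors and targets, Irs2 and Bcl6 rose and Cited2 fell with rivaroxaban, and Irs2, Bcl6 and Klhl24 rose with dabigatran. Irs2, the insulin receptor adaptor, was also the one riser among 17 genes of PI3K, AKT and insulin receptor signalling, 2.21-fold with rivaroxaban and 2.72-fold with dabigatran (limma adjusted p = 0.0264 and 0.0113). It lost its call without either rivaroxaban library or untreated replicate 8 with rivaroxaban, and without dabigatran replicate 10 or untreated replicate 8 with dabigatran (adjusted p up to 0.241 and 0.0812). By voom its rivaroxaban difference did not pass. Bcl6, a transcriptional repressor, lost its rivaroxaban call without rivaroxaban replicate 15 (adjusted p = 0.0581). The calls of Cited2 and Klhl24 were each lost in 3 of 4 analyses with a library left out, those without both rivaroxaban libraries in turn and untreated replicate 8 for Cited2 and those without dabigatran replicate 12 and both untreated libraries in turn for Klhl24 (adjusted p up to 0.183 and 0.185).

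Hypoxia is a classic inducer of REDD1. Of 18 tested genes of the HIF list Vegfa was the one riser with rivaroxaban, and with dabigatran limma and voom called 0, with 3 at an unadjusted p under 0.05. The medians of this list were 0.00999 and 0.08. Of 211 tested genes that the deposited table annotates with a response to hypoxia, a set made after the table was read, 9 rose and 2 fell with rivaroxaban and 10 rose and 4 fell with dabigatran. That is 5.21% and 6.64% of the set, beside 2.46% and 1.88% of all tested genes, with medians of 0.0141 and 0.00678. In the main fit Kcna5 and Fosl2 rose and Sox4 fell with both drugs. Only Kcna5 and Fosl2 with either drug, and Sox4 with rivaroxaban, kept their call with each library left out in turn. Every other call of the set was lost in some of these analyses, and the difference between the shares was not tested. Among 16 NRF2 and peroxiredoxin genes, which the sestrins are linked to through oxidant defence, Nfe2l2, the gene of NRF2 itself, rose 1.30-fold with rivaroxaban and 1.26-fold with dabigatran (limma adjusted p = 0.0171 and 0.0376). The rivaroxaban call was lost without rivaroxaban replicate 15 or untreated replicate 9, and the dabigatran call without dabigatran replicate 10 or either untreated library (adjusted p up to 0.22 and 0.209). No gene of any list passed in the comparison of the drugs with each other, by limma or by voom.

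**Figure D4:**
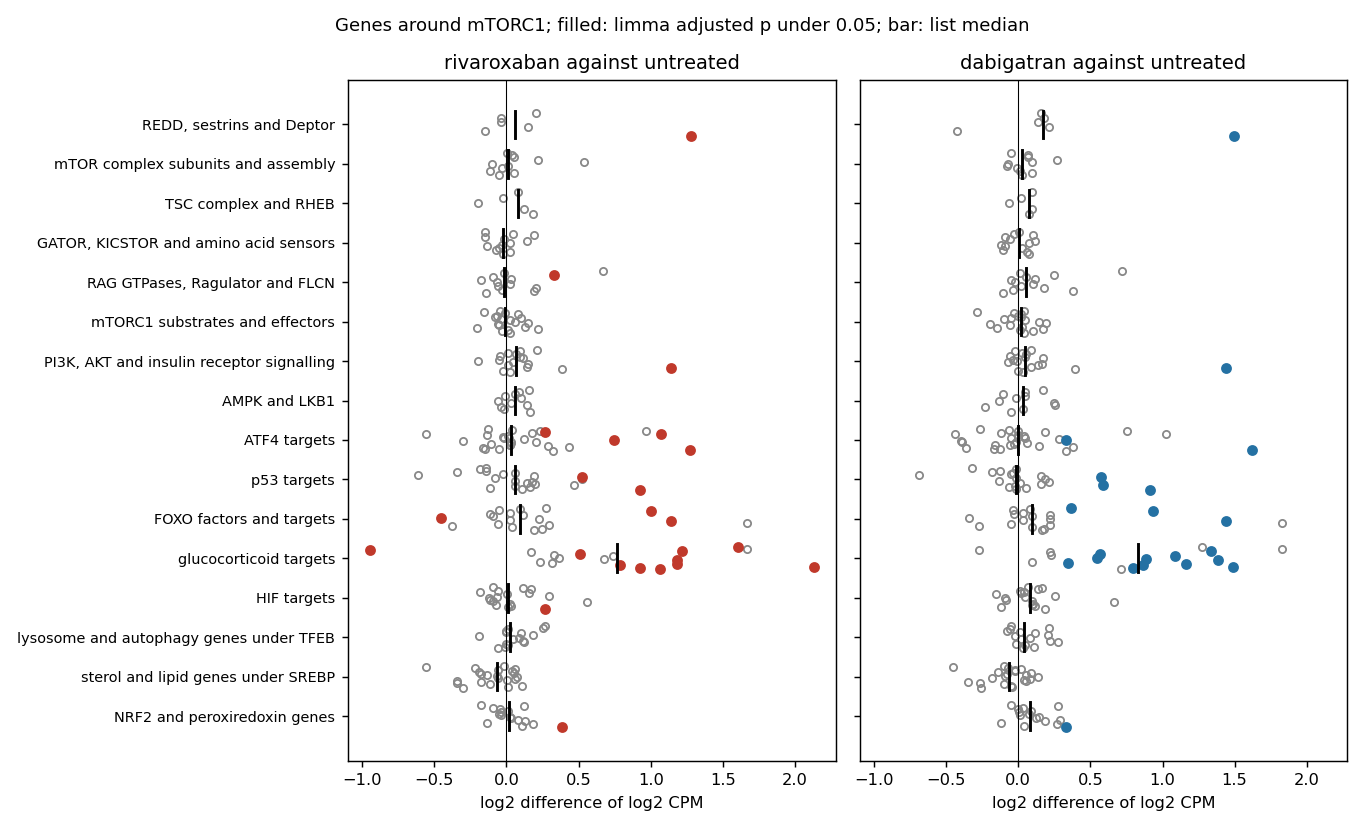
Log2 difference from untreated hearts of every tested gene of each list, with rivaroxaban on the left and dabigatran on the right, filled where the limma adjusted p over all tested genes was under 0.05, and with a bar at each list's median. The glucocorticoid targets have medians of 0.76 and 0.83, while the mTOR, TSC, GATOR and substrate lists lie near 0.

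Cell type markers were compared beside these values. The mesothelial list, for the cell layer that covers the heart, moved with treatment, with a summed level of 47.5 and 55.9 CPM with rivaroxaban, 59.9 and 61.7 CPM with dabigatran and 89.1 and 85.5 CPM in untreated hearts over 8 of 8 genes. All 8 of its genes had reads in every library. With rivaroxaban 6 fell and Wt1 rose, and with dabigatran 3 fell and Wt1 rose, with the call of Wt1 lost without each library in turn (adjusted p up to 0.17 and 0.136). Of the genes that fell with rivaroxaban, Msln and Upk3b kept their call with each library left out, Krt19 lost it in 2, Krt18 and Lrrn4 in 3 and Gpm6a in all 4 of these analyses. Of those that fell with dabigatran, Upk3b lost its call in 2 and Msln and Gpm6a in 3 of 4. Slc4a1, the anion exchanger of red cells, named after its values were seen, had 0.91 and 0.37 log2 CPM with rivaroxaban, 1.38 and 0.81 with dabigatran and -0.20 and -1.85 in untreated hearts. It was called with dabigatran (4.36-fold, limma adjusted p = 0.0487), and the call was lost without either dabigatran library and without untreated replicate 9 (adjusted p up to 0.275). The part of these markers in the level of Ddit4 was not tested. The fibroblast, endothelial, macrophage, T and B cell, adipocyte and skeletal muscle sums of the treated and untreated libraries overlapped for both drugs. The adipocyte sum was nearly all Fabp4 (491 to 576 CPM), with Adipoq, Plin1 and Cidec each at most 0.548 CPM. The neutrophil sum was 3.52 and 3.08 CPM with rivaroxaban, 2.35 and 3.69 CPM with dabigatran and 2.56 and 3.06 CPM in untreated hearts. Both rivaroxaban libraries thus lay above both untreated ones, while the dabigatran libraries overlapped them. The smooth muscle and pericyte sum was 1339 and 1331 CPM with rivaroxaban, 1385 and 1374 CPM with dabigatran and 1362 and 1342 CPM in untreated hearts, without overlap. The infarct response sum was 64.9 and 51.6 CPM with rivaroxaban, 53.8 and 54.9 CPM with dabigatran and 64.9 and 58.1 CPM in untreated hearts, so that both dabigatran libraries lay below both untreated ones. Postn made up nearly all of the infarct response sum in every library. Single genes were called in the endothelial and smooth muscle lists with rivaroxaban. Emcn, which encodes endomucin, had 5.59 ± 0.03 log2 CPM with rivaroxaban and 6.01 ± 0.02 in untreated hearts (SD, n = 2 each) and fell (limma log2 -0.43, adjusted p = 0.00336), a call lost without rivaroxaban replicate 15 (adjusted p = 0.069). Myh11, the smooth muscle myosin, fell (limma log2 -0.34, adjusted p = 0.0416), a call lost without rivaroxaban replicate 15 and without either untreated library (adjusted p up to 0.376). Limma and voom called 0 genes of the cardiomyocyte, fibroblast, macrophage, neutrophil, T and B cell, adipocyte, skeletal muscle and infarct response lists with either drug. At an unadjusted p under 0.05 there were 1 cardiomyocyte and 1 fibroblast gene with dabigatran and 0 with rivaroxaban. The genes tested were 6 for cardiomyocytes and 7 each for fibroblasts and macrophages. Only 1 gene each was tested in the neutrophil, adipocyte and infarct response lists, 2 in the skeletal muscle list and 3 in the T and B cell list. For these short lists the lack of calls says little about the cells.

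Likeness over the 6 libraries was sought among tested genes averaging 1 log2 CPM or more. The 6 members and genes with a clone, predicted-gene or mitochondrial symbol were left out. Without these limits, 3.01% of the other tested genes had a Pearson r above 0.9 with Ddit4. Within them, the genes whose log2 CPM followed Ddit4 most closely were Prdm15 (Pearson r = 0.997), Atf3 (0.994) and Aebp2 (0.994). Of these, Atf3 passed the threshold against untreated hearts, and Prdm15 and Aebp2 had log2 differences of 0.27 and 0.12 with rivaroxaban and 0.32 and 0.14 with dabigatran that did not. The closest to Ddit4l were Slc52a3 (0.990), Map4 (0.983) and Cpne8 (0.983). Sesn1 was followed by Uggt1 (0.998), Fbln5 (0.984) and Senp2 (0.982), and Sesn2 by Ahcyl1 (0.987), Poln (0.975) and Gmppa (0.974). Sesn3 was followed by Atxn1 (0.998), Eif1 (0.992) and Fam45a (0.990), and Deptor by Mfsd4b1 (0.995), Rad9b (0.993) and Pygb (0.987). Each r is a description over 6 libraries in 3 groups, and genes that differ between the groups in the same way will have a high r. No gene was named for more than one of the 6 members.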

How the data were processed

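Poly-A RNA of 6 heart samples was sequenced with a directional kit, per the labels' protocols. Alignment with STAR to mm10, trimming with Trim Galore and use of edgeR are listed, without versions, in the submitters' processing notes, and the read counter is not given. The table holds log2 CPM after TMM scaling by the authors, per the file headers, with a shared floor of -4.04 that draws low values together. After the floor was removed, 100% of low values were whole reads within 0.02, which gave reads per gene and depth. Grouping followed the treatment label, with 2 samples per group.

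Of 16229 genes, the 12981 averaging 0 log2 CPM or more were tested with limma 3.58.1 in R 4.3.3 (3 group means, mean-variance trend, two-sided, Benjamini-Hochberg over all tested genes, threshold 0.05). With 3 residual degrees of freedom, the groups share an estimate of spread. The test was also run on simulated data. The 6 members and all lists were chosen with earlier results of these data known, so the members' values are descriptions. Of 263 list entries 252 matched by symbol, and of 80 marker entries 66. One marker gene, and the sum that needs it, is not reported here.

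Of each list, up to 4 called genes with the lowest p were to be named, and for each member the 3 genes most like it. CPM per kb is CPM divided by all exon bases of GENCODE M21. Promoter windows are from RefSeq, with 5 of 6 members matched.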

Additional observations from a re-analysis of the deposited data

How the results depend on the processing

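Ddit4 kept its direction under all 11 alternatives for each drug and its call under 10 of them, the exception being limma without the mean-variance trend. Its log2 difference lay between 1.25 and 1.28 for rivaroxaban and between 1.46 and 1.50 for dabigatran when no library was left out. Without the trend the count of members past the threshold was 0 with either drug, and 0 of all genes passed in each comparison. At an unadjusted p under 0.05 that fit gave 1938, 1728 and 984 genes, in the order rivaroxaban against untreated, dabigatran against untreated, rivaroxaban against dabigatran. The other members had no call under any alternative. With 1 library left out, the direction changed for Sesn2 (-0.09 to 0.02) and Sesn3 (-0.13 to 0.06) with rivaroxaban, for Sesn3 with dabigatran (-0.10 to 0.46), and between the drugs for Ddit4 (-0.47 to 0.03), Sesn3 (-0.50 to 0.06) and Deptor (-0.08 to 0.16).

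Over all genes, leaving out 1 library gave 61 to 212 calls for rivaroxaban in place of 319, with the fewest without rivaroxaban replicate 15, then 134 without untreated replicate 8 and 173 without rivaroxaban replicate 14. For dabigatran it gave 73 to 270 in place of 244, with 73 without untreated replicate 8, 98 without dabigatran replicate 10 and 150 without untreated replicate 9. Between the drugs it gave 0 to 20 in place of 10, with 20 without dabigatran replicate 12, and the 4 drug libraries alone gave 6. Among 240 tested list genes, the 21 calls with rivaroxaban became 5 without rivaroxaban replicate 15 and 13 without untreated replicate 8. The 20 calls with dabigatran became 11 without dabigatran replicate 10 and 9 without untreated replicate 8. With either drug 0 list genes were called without the trend. Of these list genes 5 with rivaroxaban and 7 with dabigatran kept their call with every single library left out. The cause of these changes was not tested. No paired analysis was possible because the groups share no replicate numbers. Genes with about 100 reads per library, Ddit4l and Sesn3, had the widest intervals.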
